A study of Mus musculus with 32 samples.

Results

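The mitochondrial ribosomal protein genes were taken as every gene whose name on the array starts with Mrpl or Mrps followed by a digit. There were 77 of them among the 24521 genes tested, 48 named for the large subunit (Mrpl) and 29 named for the small subunit (Mrps), and none was lost to the filter on dim spots. They were measured in the brown adipose tissue of male C57BL6/J animals on 32 single-colour Agilent arrays, in 4 groups of 8. Total ChREBP-KO mice carry an Mlxipl-null allele and lack both isoforms of ChREBP, the glucose-responsive transcription factor that the Mlxipl gene encodes. ChREBPβ-KO mice carry a CRISPR/Cas9 deletion of exon 1b, the first exon of the shorter β isoform, and keep the α isoform. Both deletions are present in all tissues from conception, so a difference in brown fat need not arise in brown adipocytes. WT littermates formed the controls of each line, which gave a total-line WT group and a β-line WT group. All 4 groups shared the same feeding schedule, a 24 h fast and then 18 h of refeeding with food and water containing 20% glucose, so no group was unstimulated. Ages are not given in the sources used here, and the labels number the arrays within a group without naming the animals.

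Mitochondria keep their own ribosome, which translates the few proteins encoded by mitochondrial DNA, all of them core subunits of the oxidative phosphorylation complexes. Every protein of this ribosome is encoded in the nucleus, made in the cytosol and imported. Some of the proteins descend from bacterial ribosomal proteins, and others exist only in the mitochondrial ribosome. Brown adipocytes are packed with mitochondria and burn fuel through uncoupled respiration, so they carry much of this machinery.

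Values are quantile-normalised log2 intensities of the brightest probe of each gene, on which a step of 1 is a doubling of the signal. A probe's brightness also depends on its sequence, so levels were compared between groups for 1 gene and never between genes. A gene was called higher or lower where limma gave a Benjamini-Hochberg adjusted p below 0.05 over all 37304 probes. All 114 kept probes of the 77 genes were flagged well above background on all 32 arrays and none was saturated, and 101 of the 114 also passed the scanner software's other quality flags on every array. The brightest probes had log2 levels from 7.03 to 16.30, and the dimmer probes of the same genes went down to 4.86.

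The tissue label and the genotypes were checked first. Ucp1, the uncoupling protein that defines brown fat, had a level of 18.53 ± 0.09 (SD, n = 8) in total-line WT and 18.43 ± 0.11 in total ChREBP KO, and the β-line groups lay at 18.47 and 18.46. Ucp1 was 1 of 10 brown adipocyte genes read. Of these 10, 4 were called higher and 2 lower in total ChREBP KO, so the level of Ucp1 does not stand for the others. The brightest Mlxipl probe was lower in both KO groups than in their WT littermates. Its differences were -2.48 in total ChREBP KO and -1.498 in ChREBPβ KO (adjusted p = 2.01e-24 and 7.08e-17). A dimmer Mlxipl probe was also called lower in both, with -0.77 and -1.14. Another dimmer one was called in neither, with 0.14 and -0.08 (adjusted p = 0.068 and 0.63). The mouse lines differed in transcripts of another tissue. The mean of 10 skeletal muscle genes lay between 12.51 and 16.04 on the total-line WT arrays and 14.19 and 15.69 on the total ChREBP KO arrays, against 5.68 to 11.80 in β-line WT and 5.76 to 11.35 in ChREBPβ KO. None of the 10 was called in either KO, and all 10 were lower in β-line WT than in total-line WT. The mean of 10 liver genes was above 10 on 4 β-line WT arrays, 5 ChREBPβ KO arrays, 1 total-line WT array and no total ChREBP KO array. In bulk tissue, fewer cells of a type and less RNA per cell cannot be told apart.

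Promoter sequences are shown first for the genes at the ends of the range, since members that move together are the ones whose promoters a reader would set side by side. RefSeq promoter windows on GRCm38.p6, from 250 bases before to 50 after a transcription start, were found for 68 of the 77 genes (74 windows), and Mrps35 was not among them. The 150 bases just before the start are printed 5′ to 3′ on the gene's strand for Mrpl55 (chr11:59202336-59202485, plus) and Mrps36 (chr13:100744660-100744809, minus), which were higher in total ChREBP KO, and for Mrpl50 (chr4:49521084-49521233, minus), Mrps6 (chr16:92058186-92058335, plus) and Mrpl35 (chr6:71823785-71823934, minus), which were lower.
Mrpl55: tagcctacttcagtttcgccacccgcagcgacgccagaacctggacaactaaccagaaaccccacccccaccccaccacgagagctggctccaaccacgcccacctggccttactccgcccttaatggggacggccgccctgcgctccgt
Mrps36: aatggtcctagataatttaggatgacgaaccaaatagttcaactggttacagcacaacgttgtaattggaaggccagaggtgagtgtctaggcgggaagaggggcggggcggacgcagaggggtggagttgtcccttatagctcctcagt
Mrpl50: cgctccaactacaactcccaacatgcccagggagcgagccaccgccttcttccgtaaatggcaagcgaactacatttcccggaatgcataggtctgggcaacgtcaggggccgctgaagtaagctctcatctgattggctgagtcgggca
Mrps6: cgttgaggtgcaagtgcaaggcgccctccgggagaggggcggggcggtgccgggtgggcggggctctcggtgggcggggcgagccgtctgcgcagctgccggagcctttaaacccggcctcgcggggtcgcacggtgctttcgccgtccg
Mrpl35: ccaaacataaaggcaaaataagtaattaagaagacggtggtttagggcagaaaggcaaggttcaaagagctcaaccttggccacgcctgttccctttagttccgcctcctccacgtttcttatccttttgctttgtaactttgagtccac
None of these 5 stretches held any of the 6 motifs searched on both strands. The NRF1 motif was searched in a core form (GCGC, any 2 bases, GCGC) and in a full form with AT in the middle of that core. The others were those of ETS factors such as GABP (CCGGAAGT) and of YY1 (AAGATGGC), the E-box (CACGTG), and the carbohydrate response element through which ChREBP binds DNA, a pair of E-boxes with 5 bases between them. NRF1 and GABP are known activators of nuclear genes for mitochondria. The full NRF1 motif lay before the start of 3 members, printed with the motif in capitals: Mrpl32 (chr13:14613038-14613187, minus), Mrpl39 (chr16:84735245-84735394, minus) and Mrpl9 (chr3:94443186-94443335, plus).
Mrpl32: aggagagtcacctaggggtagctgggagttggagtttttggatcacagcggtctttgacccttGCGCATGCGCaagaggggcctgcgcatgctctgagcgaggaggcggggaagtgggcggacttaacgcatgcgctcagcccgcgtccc
Mrpl39: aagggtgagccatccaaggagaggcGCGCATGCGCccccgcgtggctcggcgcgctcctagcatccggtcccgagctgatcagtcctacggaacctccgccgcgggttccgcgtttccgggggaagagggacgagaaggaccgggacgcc
Mrpl9: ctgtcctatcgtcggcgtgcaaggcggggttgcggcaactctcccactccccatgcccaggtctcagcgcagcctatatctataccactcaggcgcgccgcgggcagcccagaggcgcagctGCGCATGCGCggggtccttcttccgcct
Over whole windows, the full NRF1 motif was in 4.05% of the members' windows and 0.971% of all 32851 windows, and its core form in 18.9% and 6.23%. The ETS motif was in 16.2% against 3.89%, and the YY1 motif in 16.2% against 2.75%. The E-box was in 9.46% of the members' windows, near the 7.15% of all windows. The carbohydrate response element was searched only as a pair of exact CACGTG copies with 5 bases between them. No window of either set held this exact form, so the search could not tell the members from other genes. The windows of members higher in total ChREBP KO held the NRF1 core in 18.2%, the ETS motif in 11.4% and the YY1 motif in 13.6%, against 20%, 23.3% and 20% of the other members' windows. A match of letters is a description of the sequence and not a binding site.

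Loss of both isoforms of ChREBP went with higher levels of most mitochondrial ribosomal protein genes. In total ChREBP KO, 45 of the 77 genes were higher than in total-line WT, 5 were lower and 27 were not called. Over all genes tested, 44.1% were called, 23% higher and 21.1% lower, whereas 58.4% of the mitochondrial ribosomal genes were higher and 6.49% lower. The changes were small: the difference ranged from -0.66 to 0.62, and its median was 0.22 over the members and 0.01 over all genes. For 31 members, or 40.3%, every KO array lay above every WT array, which held for 8.16% of all genes. Every KO array lay below every WT array for 2 members, Mrpl50 and Mrps6, or 2.6% against 8.42% of all genes.

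**Figure D1:**
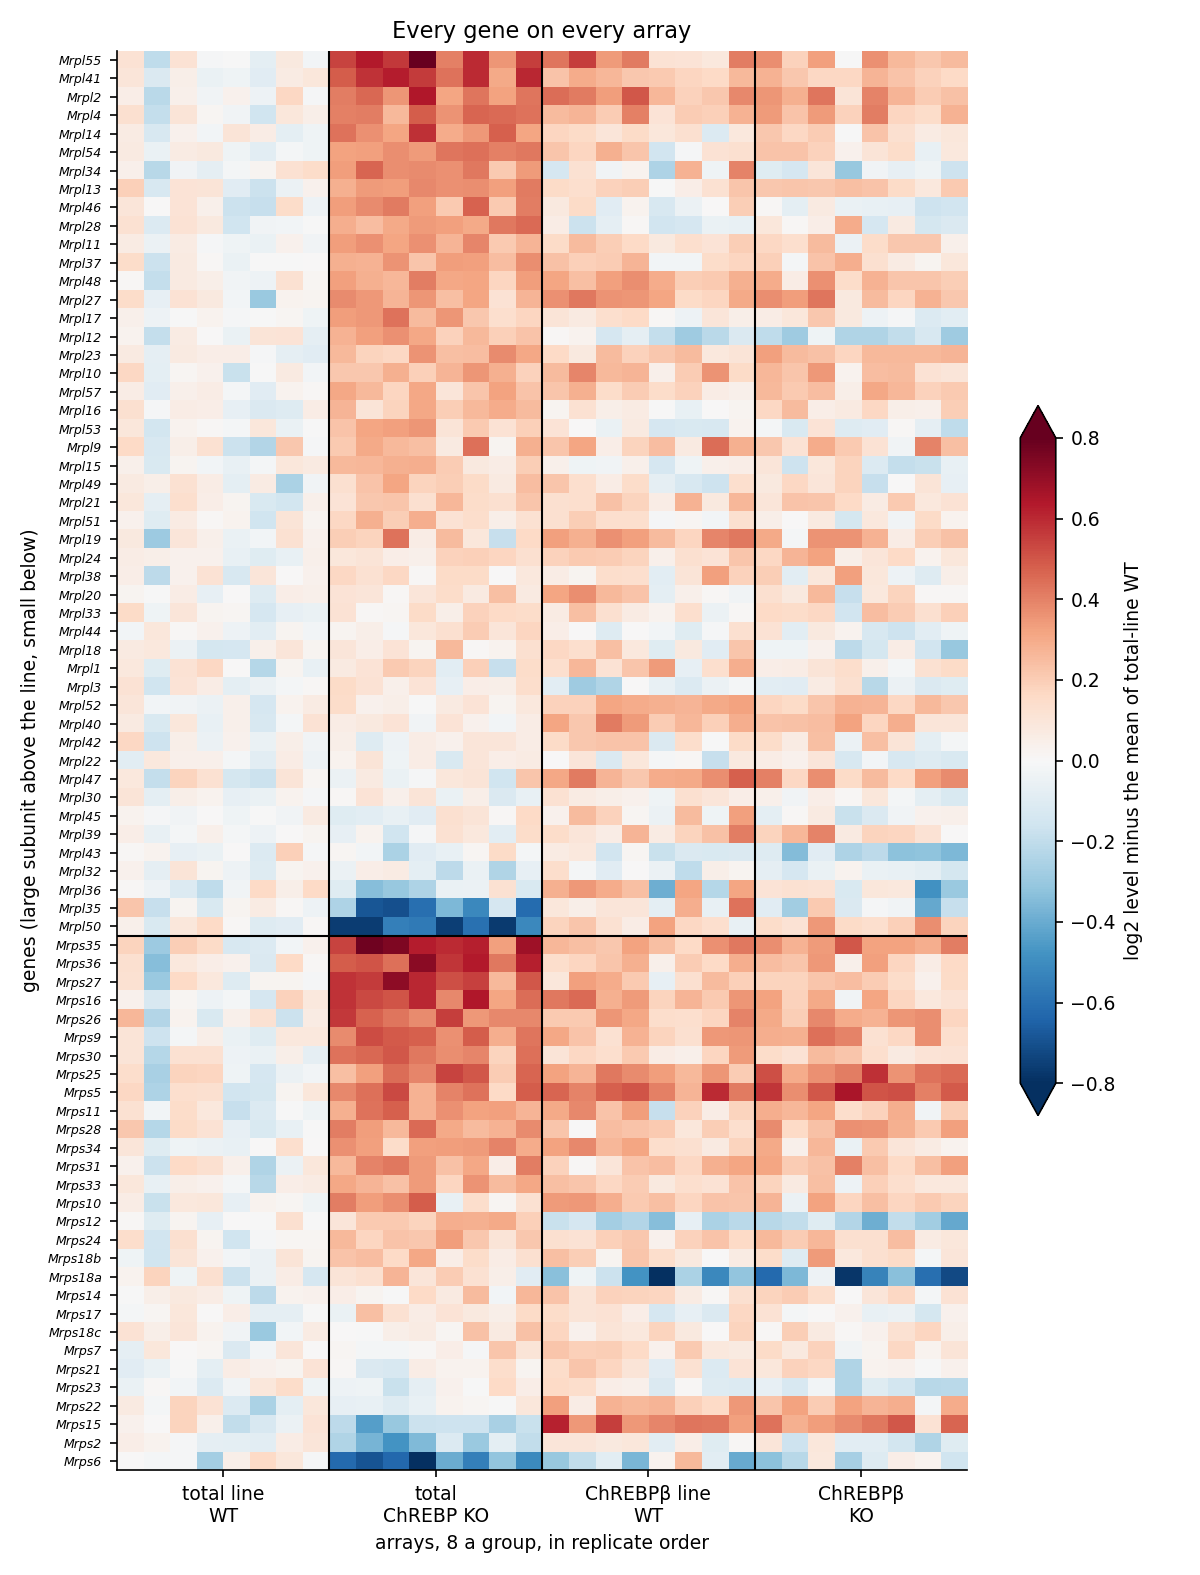
Log2 level of each of the 77 genes (rows, large subunit above the line and small subunit below, ordered by the difference in total ChREBP KO) on each of the 32 arrays (columns, 8 a group), minus the gene's mean over the total-line WT arrays; red is higher and blue lower, and the colour scale stops at 0.8 in each direction. Most rows are redder in total ChREBP KO than in total-line WT, the rows of Mrpl50, Mrpl35 and Mrps6 are blue there, and many rows are also red in both β-line groups.

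Both subunits moved the same way. Of the genes named for the large subunit 27 were higher, 2 lower and 19 not called, with a median difference of 0.18. Of those named for the small subunit 18 were higher, 3 lower and 8 not called, with a median of 0.23. Scaling each array to its 75th percentile in place of quantile normalisation lowered these medians to 0.11 and 0.17. The number called went to 45, of which 37 were higher and 8 lower. Under that scaling 45.6% of all genes were called, 6308 higher and 4882 lower. The median of all genes rose from 0.01 to 0.06, while that of all 77 members fell from 0.22 to 0.12.

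The mean over the genes named for each subunit showed the same on single arrays. The large-subunit mean lay between 12.97 and 13.14 on the total-line WT arrays and between 13.18 and 13.25 on the total ChREBP KO arrays. The small-subunit mean lay between 12.96 and 13.15 in WT and between 13.22 and 13.30 in KO. The groups did not overlap for either subunit. Within the 4 wash batches named in the labels, the difference was 0.13 to 0.21 for the large subunit and 0.16 to 0.29 for the small subunit. The highest value of each was in batch 2, whose only total ChREBP KO array was replicate 5.

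**Figure D2:**
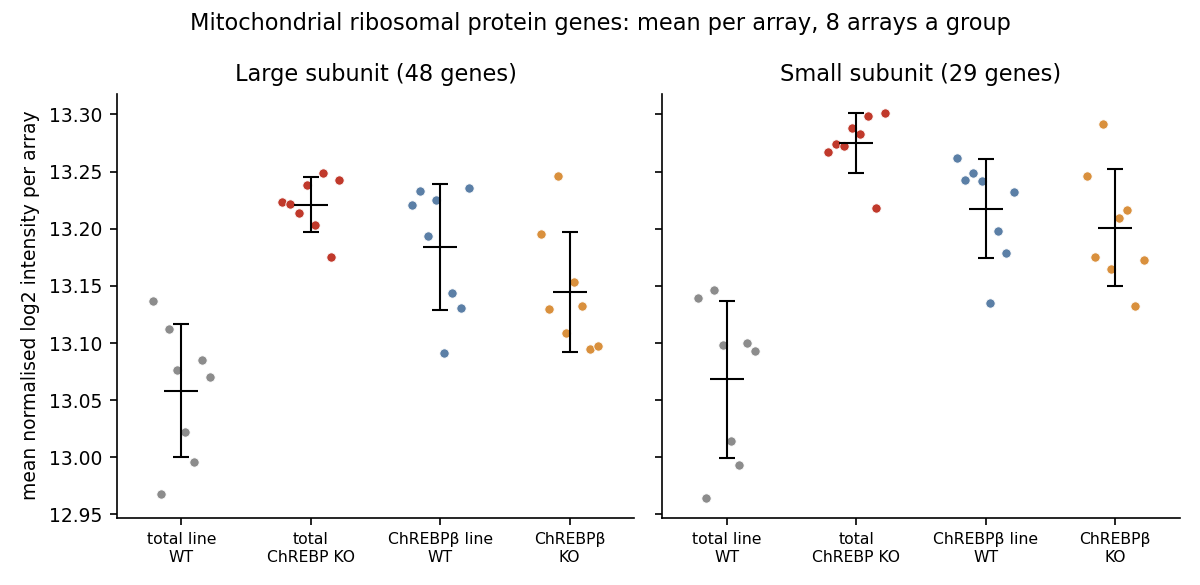
Mean normalised log2 intensity of the 48 genes named for the large subunit (left) and the 29 named for the small subunit (right). Each point is 1 array, and the bar and whiskers are the mean ± SD of 8 arrays. Total-line WT is the lowest group in both panels, and all 8 total ChREBP KO arrays sit above all 8 total-line WT arrays.

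Proteins with a bacterial counterpart and proteins particular to mitochondria were both represented among the higher genes. By their place in the known structure, 17 of 29 bacterial-type large-subunit genes were higher and 1 lower, and 11 of 21 mitochondria-specific ones were higher and 1 lower. In the small subunit, 8 of 16 bacterial-type genes were higher and 3 lower, and 8 of 10 mitochondria-specific genes were higher and none lower. Over all genes 23% were higher and 21.1% lower. The 18.8% of bacterial-type small-subunit genes that were lower is near that share. Differences between these classes were not tested.

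The largest rise was that of Mrps35, a mitochondria-specific protein of the small subunit (mm9 probe position chr6:147009999-147019119, a span that crosses an intron). Its levels had a lowest, median and highest value of 11.74, 12.03 and 12.22 in total-line WT and of 12.35, 12.65 and 12.80 in total ChREBP KO. In the β line they were 12.19, 12.28 and 12.45 in WT and 12.30, 12.36 and 12.52 in KO. The KO arrays of the total line stood above all others but for 1, and both β-line groups lay between the groups of the total line with some overlap. The difference was 0.62 ± 0.06 (SE; 1.53-fold, adjusted p = 1.5e-09) in total ChREBP KO and 0.08 ± 0.06 (adjusted p = 0.70) in ChREBPβ KO.

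Mrpl55 encodes a mitochondria-specific protein of the large subunit (mm9 chr11:59019307-59019366). Its levels ran from 14.28 over a median of 14.48 to 14.60 in total-line WT, and from 14.83 over 15.04 to 15.28 in total ChREBP KO. In β-line WT they ran from 14.57 over 14.86 to 15.04, and in ChREBPβ KO from 14.48 over 14.74 to 14.85. Only the total-line groups were apart, and the β-line groups overlapped each other. The difference was 0.56 ± 0.07 (1.47-fold, adjusted p = 8.07e-08) in total ChREBP KO and -0.06 ± 0.07 (adjusted p = 0.81) in ChREBPβ KO.

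Mrps36 carries a ribosomal name, but its product is known as a component of the 2-oxoglutarate dehydrogenase complex of the citric acid cycle (mm9 chr13:101506215-101509014). Its lowest, median and highest levels were 14.02, 14.41 and 14.52 in total-line WT and 14.79, 14.91 and 15.09 in total ChREBP KO. The β-line values were 14.41, 14.55 and 14.66 in WT and 14.41, 14.56 and 14.72 in KO. Every total ChREBP KO array was above every array of the 3 other groups. The difference was 0.55 ± 0.06 (1.46-fold, adjusted p = 7.08e-09) in total ChREBP KO and 0.01 ± 0.06 (adjusted p = 0.98) in ChREBPβ KO.

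The next largest rises in total ChREBP KO were spread over both subunits. Mrps27 rose by 0.53 and Mrps26 by 0.44, both coding for mitochondria-specific small-subunit proteins. Mrpl41, a mitochondria-specific large-subunit gene, rose by 0.52 with the smallest adjusted p of all 77 genes (1.48e-11). Bacterial-type small-subunit genes were among them too, Mrps16 with 0.50 and Mrps9 with 0.43. So were Mrpl2, whose protein lies close to the peptidyl transferase centre in the large subunit, with 0.42, and Mrpl4, whose protein lines the exit tunnel, with 0.41. For each of these 7 genes every KO array lay above every total-line WT array.

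Some members have roles beside translation, or a name that does not match their place. Mrpl12, which also binds the mitochondrial RNA polymerase, was 0.27 ± 0.05 higher in total ChREBP KO (adjusted p = 4.4e-05). Mrps30 is named for the small subunit but sits in the large one, and it was 0.40 ± 0.05 higher (adjusted p = 1.4e-07). Mrps18a is another such protein, and its difference was 0.11 ± 0.09 (adjusted p = 0.36), while the dimmer of its 2 kept probes was called lower. Mrps17 is the only member whose probe lies within 10 Mb of Mlxipl on chromosome 5, at 5.39 Mb, and its difference was 0.09 (adjusted p = 0.12).

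The 5 lower genes were Mrpl50, Mrps6, Mrpl35, Mrps2 and Mrps15. Mrpl50, a mitochondria-specific large-subunit gene (mm9 chr4:49527089-49527148), had a lowest, median and highest level of 9.89, 10.02 and 10.17 in total-line WT and of 9.25, 9.34 and 9.49 in total ChREBP KO. The β-line values were 9.95, 10.16 and 10.33 in WT and 10.13, 10.18 and 10.38 in KO. All 8 total ChREBP KO arrays were below the other 24 arrays. Mrpl50 fell by 0.66 on the log2 scale (SE 0.06; 0.635-fold, adjusted p = 1.95e-11) in total ChREBP KO, and its difference in ChREBPβ KO was 0.06 ± 0.06 (adjusted p = 0.72).

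Mrps6, a bacterial-type gene of the small subunit (mm9 chr16:92112223-92112282), had levels of 13.54, 13.81 and 13.98 in total-line WT and of 12.97, 13.23 and 13.50 in total ChREBP KO. In the β line the values were 13.41, 13.67 and 14.07 in WT and 13.49, 13.69 and 13.90 in KO. The total-line groups did not overlap, while the β-line groups covered the same range. Mrps6 fell by 0.57 (SE 0.08; 0.674-fold, adjusted p = 1.4e-06) in total ChREBP KO, against a difference of 0.03 ± 0.08 (adjusted p = 0.94) in ChREBPβ KO.

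Mrpl35, a bacterial-type large-subunit gene (mm9 chr6:71763258-71763317), was read by the dimmest of the brightest probes. Its levels were 7.55, 7.75 and 7.96 in total-line WT and 7.03, 7.18 and 7.60 in total ChREBP KO, where the highest KO array reached into the WT range. The β-line values were 7.65, 7.83 and 8.17 in WT and 7.32, 7.63 and 7.95 in KO. It fell by 0.48 (SE 0.09; 0.716-fold, adjusted p = 2.99e-05) in total ChREBP KO, and it had the largest difference of any member in ChREBPβ KO, -0.23 ± 0.09, which was not called (adjusted p = 0.18). Mrps2 and Mrps15, both bacterial-type small-subunit genes, fell by 0.27 and 0.24 in total ChREBP KO.

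**Figure D3:**
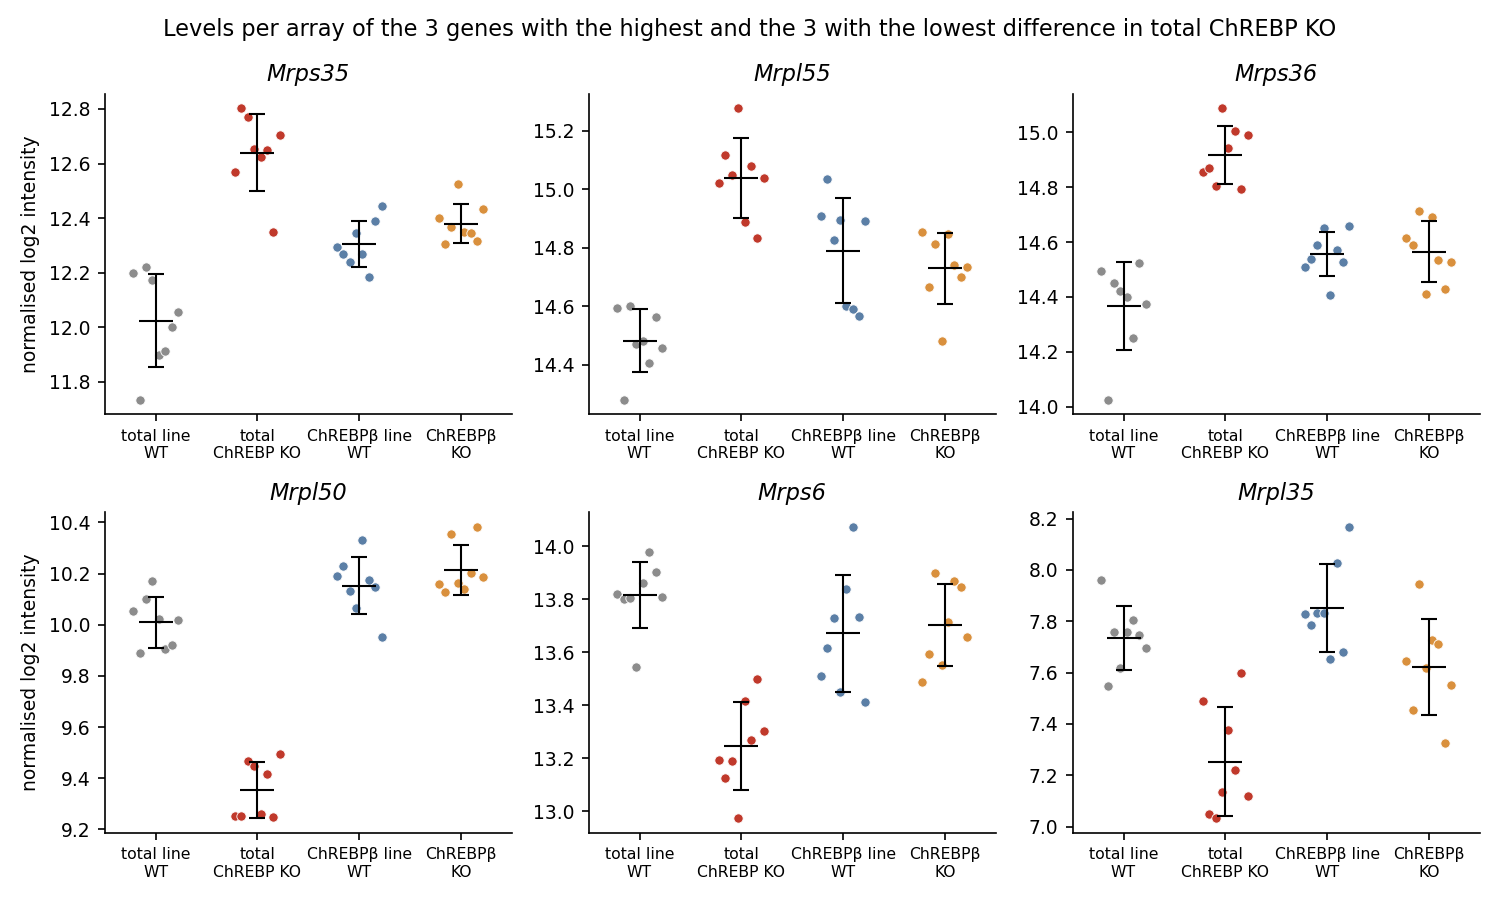
Normalised log2 intensity of Mrps35, Mrpl55 and Mrps36 (top, the 3 highest differences in total ChREBP KO) and of Mrpl50, Mrps6 and Mrpl35 (bottom, the 3 lowest); each point is 1 array, the bar and whiskers are the mean ± SD of 8 arrays, and each panel has its own axis. In every panel the total ChREBP KO group stands apart from the others in its mean, by 0.48 to 0.66 from total-line WT.

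Several probes of 1 gene did not always give the same answer. Of the 28 members with more than 1 kept probe, 16 had all probes on the same side of 0 in total ChREBP KO. Where the brightest probe was not called, a dimmer one was called lower for Mrpl47 (-0.41, adjusted p = 2.72e-05) and Mrps18a, and higher for Mrps23. Probes were called in opposite directions for Mrpl48, Mrpl9 and Mrps33. The called probes of Mrpl48 gave 0.30, 0.30 and -0.33, those of Mrpl9 0.23 and -0.21, and those of Mrps33 0.28, 0.23 and -0.20. When all kept probes of each gene were averaged, the difference was 0.12 for Mrpl48 and 0.10 for Mrps33, both still called, and 0.04 for Mrpl9, which was no longer called (adjusted p = 0.57).

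Loss of ChREBPβ alone left these genes close to their WT littermates. In ChREBPβ KO, limma called none of the 77 genes, where 2.7% of all genes were called. At an unadjusted p below 0.05, 9 members passed, 3 of them higher and 6 lower, which is 11.7% against 14.1% of all genes. The median difference was -0.04 over the large-subunit genes, -0.02 over the small-subunit genes and -0.003 over all genes. The 95% intervals of all 77 differences lay between -0.41 and 0.23, so that each excluded a change of 1.5-fold in either direction. For no member did every KO array lie above or below every WT array, which held for 0.228% and 0.204% of all genes.

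The largest differences in ChREBPβ KO were all below 0 and none was called. After Mrpl35, Mrpl36 had a difference of -0.20 ± 0.10 (adjusted p = 0.40). Its lowest, median and highest levels were 11.81, 12.48 and 12.54 in β-line WT and 11.71, 12.28 and 12.31 in ChREBPβ KO. The ranges overlapped through β-line WT replicates 5 and 7, at 11.81 and 11.97. The other β-line WT arrays lay above every ChREBPβ KO array. The differences of Mrpl18, Mrpl43 and Mrpl45, all large-subunit genes, were -0.19, -0.19 and -0.15 (adjusted p = 0.07, 0.063 and 0.14). Mrpl43 was called lower under 10 and Mrpl18 under 8 of the 48 other settings of the signal, the fit and the arrays. Mrpl45 is known for docking the ribosome to the inner membrane. A dimmer probe of Mrps14 was called with -0.39 (adjusted p = 0.0138), while the brightest probe of that gene gave -0.02, and 3.21% of all genes had any probe called in this comparison.

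**Figure D4:**
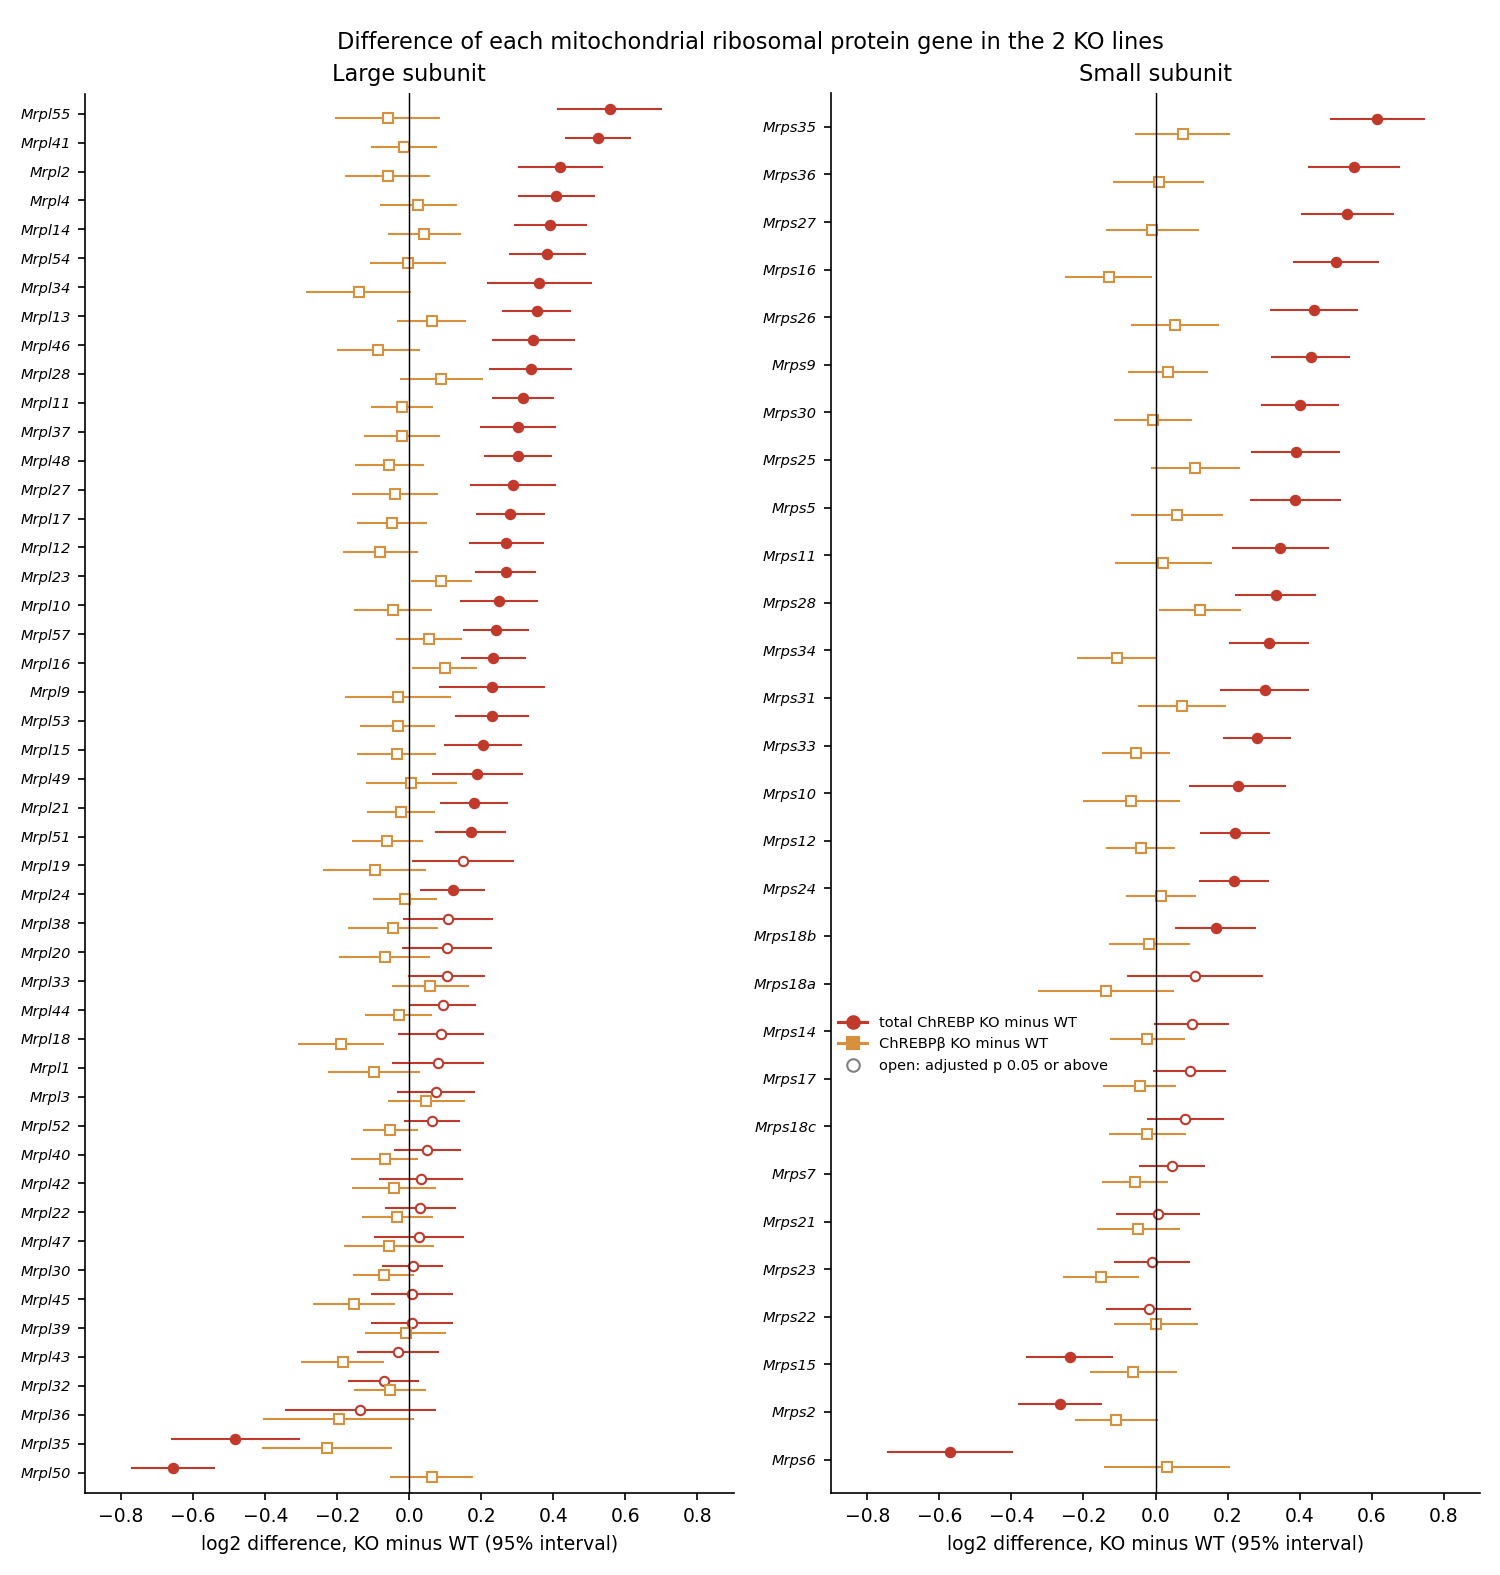
Log2 difference of each gene, KO minus WT, with its 95% interval, in total ChREBP KO (red circles) and ChREBPβ KO (orange squares), for the large subunit (left) and small subunit (right); filled symbols have an adjusted p below 0.05. The red symbols run from -0.66 to 0.62 and most lie to the right of 0, and the orange symbols run from -0.23 to 0.12 and are all open.

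The KO effects were then compared with each other by an interaction contrast, the effect of ChREBPβ KO minus the effect of total ChREBP KO. It was called for 43 of the 77 genes, 41 with a negative value, meaning a lower effect in ChREBPβ KO, and 2 with a positive value. Over all genes 25.2% were called, 13.1% with a negative and 12.2% with a positive value. The most negative values were those of Mrps16 (-0.63 ± 0.08), Mrpl55 (-0.62 ± 0.10), Mrps36 (-0.54 ± 0.09), Mrps27 (-0.54 ± 0.09) and Mrps35 (-0.54 ± 0.09). The positive ones were Mrpl50 with 0.72 ± 0.08 (adjusted p = 1.8e-08) and Mrps6 with 0.60 ± 0.12 (adjusted p = 0.000293). Without the 10 arrays whose liver gene mean was above 10, the contrast was called for 28 members and for 16.1% of all genes. This left out 5 of the 8 ChREBPβ KO arrays and 4 of the 8 β-line WT arrays. The part of lost arrays and of liver transcripts in that drop was not tested.

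The WT groups of the lines differed as well, and the total-line WT arrays enter this comparison, the KO comparison of that line and the interaction contrast alike. In β-line WT, 42 members were higher than in total-line WT and 2 were lower, with a median difference of 0.13 for the large subunit and 0.17 for the small subunit. Over all genes 38.9% were called, 24.8% higher and 14.1% lower, and the median was 0.05. For 16 members, or 20.8%, every β-line WT array lay above every total-line WT array, against 5.66% of all genes, and for none did every array lie below, against 3.8%. The large-subunit mean was 13.09 to 13.24 on the β-line WT arrays and 13.10 to 13.25 on the ChREBPβ KO arrays, and the small-subunit mean was 13.14 to 13.26 and 13.13 to 13.29. Total-line WT was thus the group with the lowest mean in both subunits, and the β-line ranges overlapped both total-line WT and total ChREBP KO.

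The members with the largest differences between the WT groups were in part others than those of total ChREBP KO. Mrps5, a bacterial-type small-subunit gene, was 0.44 ± 0.06 higher in β-line WT (adjusted p = 8.9e-07) and 0.39 ± 0.06 higher in total ChREBP KO, both against total-line WT. Mrps15 was 0.43 ± 0.06 higher in β-line WT and lower in total ChREBP KO. Mrpl2, Mrpl47 and Mrps25 were higher in β-line WT by 0.34, 0.33 and 0.32. Mrps18a was lower in β-line WT, with a difference of -0.36 ± 0.09 (adjusted p = 0.00205) and levels from 12.35 to 13.12 against 12.98 to 13.33, and Mrps12, whose protein lies at the decoding centre, was lower with a difference of -0.21.

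Because muscle genes set the lines apart, the fits were repeated with the muscle and liver means of each array as covariates. Under these covariates 50 members were called in total ChREBP KO, all of them among the 50 called without the covariates. The share of all genes called there was 44.9%. The group average of the muscle mean was 14.91 in total-line WT and 14.97 in total ChREBP KO, so this covariate had little group difference to adjust in that comparison. For the interaction contrast 43 members and 26.5% of all genes were called. Between the WT groups the count went from 44 to 11, and the share of all genes called from 38.9% to 14.7%, while the median difference of the members was 0.13 with the covariates and 0.15 without them. In that comparison the muscle mean separates the groups without overlap, so line and muscle transcripts cannot be told apart.

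Other nuclear genes of mitochondrial translation were set beside the ribosomal proteins. All 6 mitochondrial ribosomal proteins with other names were higher in total ChREBP KO, from Ptcd3 with 0.40, Gadd45gip1 with 0.38, Ict1 with 0.37 and Dap3 with 0.32 to Aurkaip1 with 0.22 and Chchd1 with 0.13. Of 20 mitochondrial aminoacyl-tRNA synthetases, which load tRNAs with amino acids, 14 were higher and 2 lower. Of 14 initiation, elongation and release factors 8 were higher and 1 lower, and of 19 ribosome assembly factors 9 were higher and 2 lower. Of 9 genes for the transcription of mitochondrial DNA 2 were higher and 1 lower. This is 22.2% higher, near the 23% of all genes, of which 21.1% were lower. Of 8 regulators of mitochondrial biogenesis 4 were higher and 1 lower. Over all 76 genes of these lists that were tested, 43 were higher and 7 lower in total ChREBP KO, with a median difference of 0.18. In ChREBPβ KO, where 2.7% of all genes were called, 1 of the 76 was higher and 1 lower.

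The 3 highest and 3 lowest called genes of these lists came from 4 of them. Ppargc1a, the coactivator known for driving mitochondrial biogenesis in brown fat, was 1.18 ± 0.18 higher in total ChREBP KO (adjusted p = 2.33e-06). Myc, a general growth regulator, was 1.15 ± 0.21 higher, and Mterf2, a mitochondrial DNA-binding factor, was 0.87 ± 0.10 higher. Cars2, the mitochondrial cysteine-tRNA synthetase, fell by 1.07 (SE 0.16). Mtif3, an initiation factor, fell by 0.35, and Gabpa, the DNA-binding subunit of GABP, fell by 0.40 (adjusted p = 1.09e-06). Gabpa was also the gene called higher in ChREBPβ KO, by 0.27 ± 0.06 (adjusted p = 0.0057), and Wars2, the mitochondrial tryptophan-tRNA synthetase, was the one called lower there, with -0.22 ± 0.06 (adjusted p = 0.0441).

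Cytosolic ribosomal proteins and respiratory chain subunits gave counts that differed from each other. Over all genes 23% were higher and 21.1% lower in total ChREBP KO. Of 76 cytosolic ribosomal protein genes, 15 were higher and 14 lower there, with a median of -0.02. These shares of 19.7% and 18.4% were near those of all genes. Of 20 nuclear subunits of oxidative phosphorylation, chosen as examples, 15 were higher and 1 lower (75% and 5%), with a median of 0.17. A large share of higher genes was thus not particular to the mitochondrial ribosomal proteins. Of 11 transcripts named for genes of mitochondrial DNA, 6 were higher and none lower, with a median of 0.13. The probe of ND3, which was among the higher ones with 0.26, is placed on chromosome 1 in the array annotation. In ChREBPβ KO the numbers called in these 3 lists were 0, 1 and 0.

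**Figure D5:**
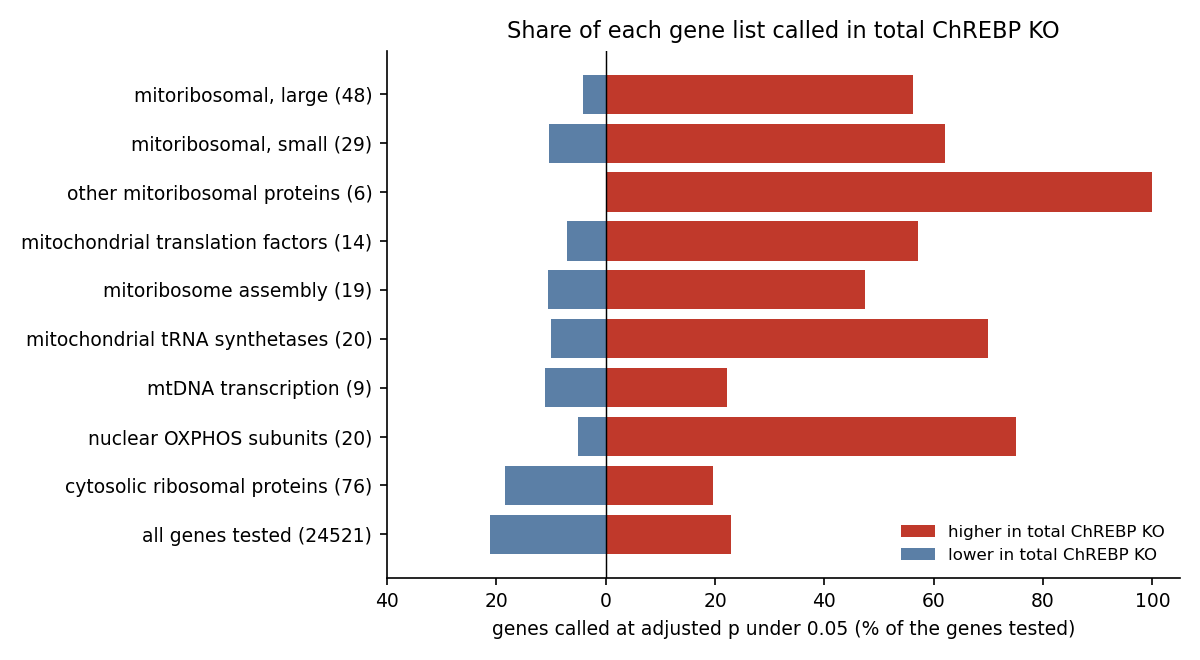
Share of each gene list, in % of its genes tested (number in brackets), that was called higher (red, to the right) or lower (blue, to the left) in total ChREBP KO against total-line WT. Genes named for the large and the small subunit were called higher in 56.2% and 62.1%, against 23% of all genes.

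Markers of other cell types were read beside these counts. In total ChREBP KO, 4 of 10 brown adipocyte genes were higher and 2 lower, 1 of 10 liver genes was higher and 1 lower, 1 of 5 white adipose and 1 of 5 lymphocyte genes was higher, and none of 3 blood genes was called. Over all genes 23% were higher and 21.1% lower. The brown adipocyte mean ran from 14.37 to 14.72 in total-line WT and from 14.44 to 14.67 in total ChREBP KO. This mean joins changes in opposite directions. The called genes were Dio2 (2.19), Ppara (1.51), Cox8b (0.41) and Pparg (0.17), which were higher, and Elovl3 (-3.16) and Prdm16 (-0.29), which were lower. The lymphocyte mean ran from 7.43 to 7.73 and from 7.53 to 8.32. The part of these transcripts in the differences of the ribosomal genes was not tested.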

How the data were processed

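RNA of 32 brown adipose tissue samples had been hybridised to 60-mer Agilent mouse arrays, and the authors deposited Agilent Feature Extraction 10.10.1.1 files of linear intensities, with probe positions on mm9, and a table of log2 values. Per the study's methods, the authors kept spots that passed on at least 26 of 32 arrays or at least 6 arrays of a group, quantile-normalised the median pixel intensities (preprocessCore) and took the median of replicated probes. These steps were repeated here from the deposited intensities (R 4.3.3, limma 3.58.1), with a mean absolute difference of 0.00298 to the deposited log2 values. Of 59305 non-control spots, 39985 were kept, giving 37304 probes and 24521 genes, each read by its brightest probe. Between 64.4% and 71.1% of spots per array were well above background, and the number of arrays limits the precision. Limma was fitted to the 4 group means without covariates, with Benjamini-Hochberg adjustment over all probes, and was tested on simulated data. With p-values resting on 8 arrays a group, they measure the spread between these arrays.

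The members and gene lists were chosen with earlier results of these data known. The genes named in total ChREBP KO were the 10 highest and 10 lowest called, in the interaction and WT comparisons the 5 highest and 5 lowest called, and in ChREBPβ KO the 5 largest differences where none was called, together with genes whose probes were called in opposite directions, Mrpl12, Mrps30, Mrps18a and Mrps36 for their roles, and members within 10 Mb of Mlxipl. For the other translation genes, they were the 3 highest and 3 lowest called. The list of transcripts encoded by mitochondrial DNA was added after the data had been seen. Alternatives varied the signal, scaling, filter, batch and slide blocks, fit and arrays. Promoters were searched with Python 3.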

Additional observations from a re-analysis of the deposited data

Results flagged for a closer look

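Among 128 tests for an array far from the rest of its group of 8 (30 named genes and both subunit means in 4 groups), 7 stood out, where chance flags about 1 in 20. The replicate 7 array of ChREBPβ KO had the lowest level of Mrps27, 11.37, with the next at 11.49. In total ChREBP KO, replicate 7 had the lowest level of Mrps30, 12.41, with the next at 12.60, and the lowest small-subunit mean, 13.22. Also in total ChREBP KO, replicate 4 had the highest level of Mrpl2, 15.02 with the next at 14.84, and replicate 5 the highest level of Mrpl18, 13.31 with the next at 13.18. In total-line WT, replicate 4 had the lowest level of Mrps6, 13.54 with the next at 13.80, and replicate 7 the highest level of Mrpl43, 14.35 with the next at 14.19.

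The KO effects, each measured in its own line, differed by the interaction test for 43 of the 77 genes. That is 55.8%, against 25.2% of all genes. Of the named genes, the effect of ChREBPβ KO minus that of total ChREBP KO was 0.72 for Mrpl50, 0.60 for Mrps6, -0.63 for Mrps16, -0.62 for Mrpl55 and -0.54 for each of Mrps36, Mrps27 and Mrps35.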

How the results depend on the processing

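The count of 50 members called in total ChREBP KO was 45 to 52 under every other signal, scaling, filter, block and fit tried, and 2 where a change of 1.5-fold was also required. For ChREBPβ KO, where none was called, 1 member was called with the processed signal, the deposited table, limma's trend and robust options, the gene mean, the covariates or any probe of a gene, and 2 with normexp, the median intensity scaled to the 75th percentile, probes passing on all arrays or array weights. Under these settings 2.46% to 3.87% of all genes were called. The interaction count of 43 was 4 at 1.5-fold. It was 28 without the 10 arrays with a liver mean above 10, where the share of all genes called was 16.1%. The WT count of 44 was 11 with the covariates, which were chosen after seeing the data as was leaving out the liver arrays, and 0 at 1.5-fold. 

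The median difference in total ChREBP KO was 0.1177 (large) and 0.1664 (small) with the processed signal and 0.1111 and 0.1673 with the median intensity, both scaled to the 75th percentile, and the latter scaling moved the median of all genes to 0.06. The subunit means' difference was 0.08087 and 0.1253 with the first, and 0.0822 and 0.1251 with the second. The interaction medians for the small subunit were -0.1882 with the second scaling and -0.1956 without the liver arrays, and the difference of subunit means -0.1489 (large) and -0.1688 (small) with that scaling. Within wash batches, the total ChREBP KO difference of the small-subunit mean was 0.1557 in batch 1 and 0.2937 in batch 2. The interaction was -0.1509 for the large subunit in batch 3, and -0.3111 in batch 2 and -0.1722 in batch 4 for the small subunit. Between the WT groups the large-subunit difference was 0.2186 in batch 2 and 0.01983 in batch 3, and the small-subunit one 0.2622 and 0.06015. The only total ChREBP KO array in batch 2 was replicate 5. Batch 3 held β-line WT replicate 7 alone of its group, and batch 4 held ChREBPβ KO replicate 6 alone of its group. Mrps18a changed sign in total ChREBP KO, to -0.06771, when its probes were averaged (adjusted p = 0.295). The cause of these shifts was not tested.

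Leaving out each array in turn gave 50 to 51 calls in total ChREBP KO, 0 to 2 in ChREBPβ KO, 41 to 45 for the interaction and 40 to 49 between the WT groups. In the same order, the shares of all genes called were 42% to 44.4%, 1.92% to 4.34%, 23.4% to 26% and 36.2% to 39.4%. The ChREBPβ KO count was 2 without ChREBPβ KO replicate 3 or β-line WT replicate 5, and 1 without ChREBPβ KO replicate 1 or 6, β-line WT replicate 7 or total ChREBP KO replicate 3. The replicate numbers were not taken to pair the arrays. Same-numbered arrays had correlations of -0.304 to 0.0801 in the total line, none over 0.1, and of -0.196 to 0.532 in the β line, 6 of 8 over 0.1, and 0 and 1 of 8 pairs correlated best with their own number. With the replicate number as a block, 50, 0 and 42 members were called in the KO and interaction comparisons, and 44 between the WT groups. The shares of all genes called there were 44.5%, 2.91%, 25.3% and 39.7%.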
